A study of Mus musculus with 30 samples.

Results

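Trib3, Sesn2, Asns, Chac1, Ppp1r15a, Vldlr and Fgf21 are genes that cells under stress switch on, and they were followed here in mouse retinal ganglion cells, the neurons that send the retina's output to the brain through the optic nerve, after that nerve was crushed. They were chosen by name, 7 genes in all, with earlier results of these data known. The RNA count table has rows for 6 of the 7 among its 13752 genes and none for Fgf21. In the chromatin data, 6 promoter peaks carry the gene ID of a member, of 39399 promoter peaks and 151630 peaks in the table, and 16 peaks of any kind carry a member's ID.

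The study took retinal ganglion cells from papain-dissociated tissue by fluorescence-activated sorting and made RNA-seq and ATAC-seq libraries from uncrushed animals (day 0) and after crush. RNA-seq counts transcripts, and ATAC-seq counts the places where a transposase could cut open chromatin. RNA was read here in 3 libraries on day 0, 3 on day 1, 2 on day 2, 3 on day 3 and 2 on day 4, which is 13 of the 15 labelled. The third library of day 2 and the first of day 4 were left unanalysed here. ATAC was read in 6 libraries on day 0, 3 on day 1 and 6 on day 3. The labels give the strain as C57BL/6 for every library except RNA day 0 replicates 2 and 3, which are labelled C57BL/7 and C57BL/8. They name no sorting marker, no age and no sex, and nothing in them ties a replicate to its own animal. Each p-value therefore measures only the spread between these libraries, which may be technical. The column names of the deposited tables call all of these libraries non-target, a term the labels do not explain.

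The sorted cells carried the markers of their label. All 10 retinal ganglion cell markers listed (among them Rbpms, Pou4f1 and Thy1) were measured, and their summed level was 10349 to 11539 CPM (counts scaled so that every library has the same total) on day 0, 7604 to 8151 CPM on day 3 and 6450 to 6759 CPM on day 4. Summed rod markers were at 245 to 1110 CPM on day 0 and 714 to 847 CPM on day 3. Summed microglia and macrophage markers were at 37.8 to 68.7 CPM on day 0 and 21.6 to 31.8 CPM on day 3, and at up to 295 CPM on day 1, 163 CPM on day 2 and 161 CPM on day 4. Summed Mueller glia and astrocyte markers were at 178 to 255 CPM on day 0, reached 460 CPM on day 1 and were at 276 to 321 CPM on day 4, above every day 0 library. Summed amacrine and horizontal cell markers were at 158 to 303 CPM on day 0 and at 366 to 396 CPM on day 2, again without overlap. That sum includes Slc6a9, which is also counted among the ATF4 targets below and was called higher on day 3 (log2 change 1.43). The part of Slc6a9 in the sum was not tested. The part of these other cells in the changes below was not tested. RNA libraries held 19024286 to 27561352 counts. In bulk samples, fewer cells of a type and less RNA per cell cannot be told apart.

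As background, the integrated stress response begins when a kinase (PERK, GCN2, PKR or HRI) phosphorylates the initiation factor eIF2. Most translation then slows, while the mRNA of the transcription factor ATF4 is translated better, and ATF4, often paired with a C/EBP protein such as CEBPG or CHOP (Ddit3), switches on genes for amino acid supply, feedback and, when stress lasts, cell death. TRIB3 is a pseudokinase that binds ATF4, CHOP and AKT. SESN2 is a leucine sensor that restrains the growth kinase complex mTORC1. ASNS makes asparagine. CHAC1 breaks down glutathione. PPP1R15A (GADD34) brings protein phosphatase 1 to eIF2 and so closes the response. VLDLR is a receptor for very low density lipoprotein and for reelin, and FGF21 is a secreted hormone that acts through FGF receptors and the co-receptor KLB.

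The promoters are shown first because 5 of the 7 genes share one short element in them. ATF4 and its C/EBP partners are known to bind a composite element with the core TGATGNAA, where N is any base. RefSeq (GRCm38.p6) windows from 250 bases before to 50 after a start site were searched on both strands for this core, for the cyclic AMP response element TGACGTCA and for the AP-1 element TGANTCA. All 7 genes matched a window, and Vldlr matched 2. The core was found in windows of Chac1, Trib3, Asns, Fgf21 and Vldlr (5 of 8 windows), against 3.969% of all 32851 windows. Ppp1r15a held TGACGTCA, which 1.79% of all windows hold. TGANTCA was in no member window and in 7.808% of all windows, and the Sesn2 window held none of the 3. A match describes letters in a window and shows no binding. Capitals mark the matched bases, which on 4 of the lines with the core read as its reverse complement, and each line gives 30 bases in the direction of the gene.
Trib3 (chr2:152344028-152344057, minus strand): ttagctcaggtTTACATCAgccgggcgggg
Asns (chr6:7693214-7693243, minus strand): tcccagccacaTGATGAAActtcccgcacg
Chac1 (chr2:119351038-119351067, plus strand): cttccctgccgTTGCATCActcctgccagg
Vldlr (chr19:27216809-27216838, plus strand): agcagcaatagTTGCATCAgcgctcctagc
Fgf21 (chr7:45615611-45615640, minus strand): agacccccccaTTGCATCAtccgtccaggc
Ppp1r15a (chr7:45526262-45526291, minus strand): cgcctctccggTGACGTCAgcacagcgccg
Counted from RefSeq's start site of that window, the match began 193 bases before it in Chac1, 139 before it in Fgf21, 200 before it in Vldlr, 23 before it in Asns and 12 before it in Ppp1r15a. In Trib3 it began 14 bases after RefSeq's start site. The Vldlr match lies in its downstream window (chr19:27216770-27217069). The Vldlr window at the start site used for its peak below (chr19:27216234-27216533) held no core.

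The RNA of 5 of the 6 measured genes was higher on day 1 than on day 0, and all 6 were higher on days 2, 3 and 4. The order of the day 3 changes ran from Trib3 (29.7-fold) through Chac1 (15.6-fold), Sesn2 (14.1-fold), Ppp1r15a (5.67-fold) and Asns (3.79-fold) to Vldlr (1.32-fold). Vldlr was the gene that was not called on day 1. Calls are from edgeR's quasi-likelihood test at a Benjamini-Hochberg adjusted p under 0.05 over all 13737 genes tested. Genes called higher made up 5.93% of all genes on day 1, 14.8% on day 2, 20.4% on day 3 and 19.8% on day 4, and genes called lower 20.1% on day 3 and 19% on day 4. The plot of RNA by library shows every value.

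**Figure D1:**
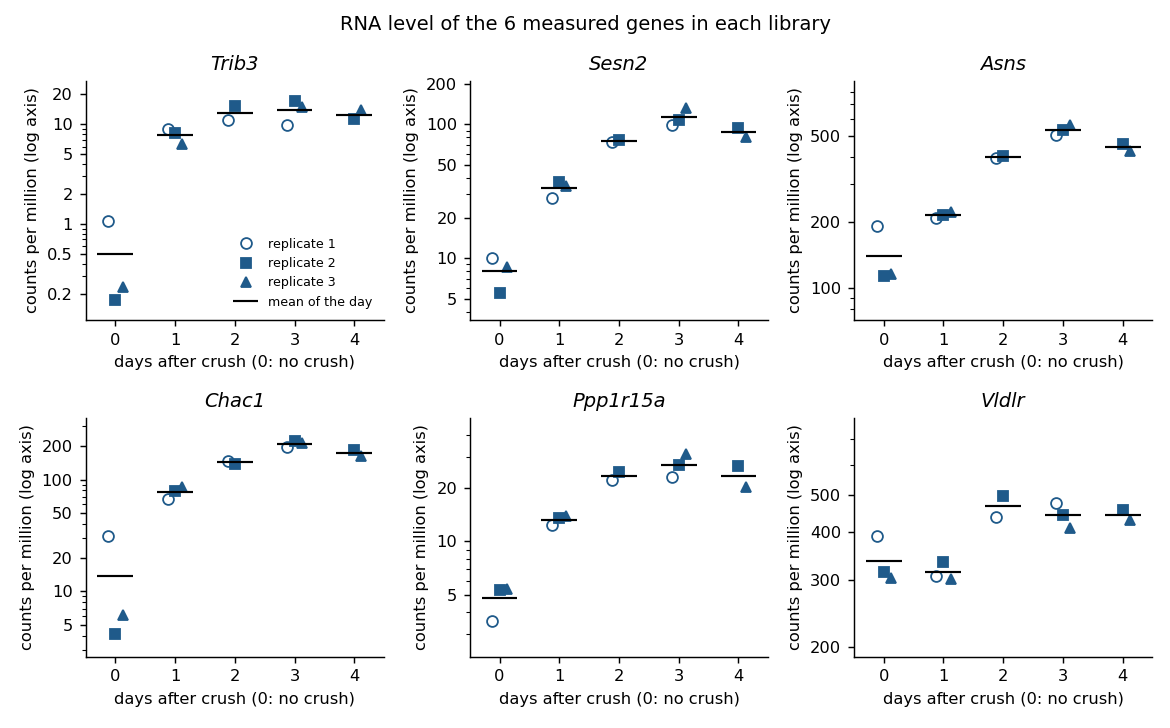
RNA level of the 6 measured genes in CPM on a log axis (vertical) by day after crush (horizontal). Each symbol is 1 library and each bar the mean of a day. In Trib3, Sesn2, Asns, Chac1 and Ppp1r15a every library of days 1 to 4 lies above every day 0 library.

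Trib3 was nearly silent in uncrushed cells. Its day 0 libraries gave 1.08, 0.17 and 0.23 CPM, which are 20, 4 and 6 counts. On day 1 it stood at 9.02, 8.13 and 6.29 CPM, on day 2 at 10.98 and 15.3 CPM, on day 3 at 9.81, 17.1 and 14.9 CPM and on day 4 at 11.2 and 13.8 CPM. Every crushed library was far above every uncrushed one, and day 0 replicate 1 was the highest of the uncrushed libraries. The log2 change was 4.06 ± 0.46 (SE) on day 1, 4.81 ± 0.49 on day 2, 4.89 ± 0.47 on day 3 and 4.74 ± 0.49 on day 4, with edgeR adjusted p-values of 2.76e-05, 1.39e-06, 2.52e-07 and 6.03e-07. After day 1 no step passed the test in the fit of all days. The log2 difference of day 3 from day 1 was 0.83 ± 0.36 (edgeR adjusted p = 0.0904). DESeq2 called this step (0.85, adjusted p = 0.0291), as did a fit of only those days (0.84, edgeR adjusted p = 0.017). The differences of day 3 from day 2 (0.08) and day 4 from day 3 (-0.15) were smaller than their SEs of 0.40. Without day 0 replicate 1 the change was 36.5-fold on day 1 in place of 16.6-fold, and 65.1-fold on day 3 in place of 29.7-fold.

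Chac1 was another gene whose size depended on 1 uncrushed library. Day 0 gave 31.1, 4.14 and 6.14 CPM. Day 1 gave 67.4, 79.2 and 86.6 CPM, day 2 gave 147 and 138 CPM, day 3 gave 195, 224 and 211 CPM, and day 4 gave 183 and 164 CPM. The days did not overlap with day 0, where replicate 1 stood well above the other uncrushed libraries. The log2 change was 2.53 ± 0.45 on day 1, 3.40 ± 0.49 on day 2, 3.96 ± 0.47 on day 3 and 3.69 ± 0.49 on day 4 (edgeR adjusted p = 0.00181, 5.32e-05, 3.51e-06 and 1.22e-05). Without day 0 replicate 1 the change was 14.7-fold in place of 5.77-fold on day 1 and 39.8-fold in place of 15.6-fold on day 3. Day 3 was above day 1 (log2 difference 1.44 ± 0.42, edgeR adjusted p = 0.0138). DESeq2 did not call that step (adjusted p = 0.0627).

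Sesn2 was called higher at each step up to day 3. It stood at 10.1, 5.53 and 8.55 CPM on day 0, at 28.4, 36.9 and 34.7 CPM on day 1, at 74.5 and 76.5 CPM on day 2, at 99.1, 108 and 132 CPM on day 3, and at 93.7 and 81.3 CPM on day 4. No library of one day overlapped with those of the next, and day 4 lay below day 3. The log2 change against day 0 was 2.06 ± 0.18, 3.24 ± 0.19, 3.82 ± 0.19 and 3.45 ± 0.19 on days 1 to 4 (edgeR adjusted p = 1.23e-06, 3.45e-09, 8.78e-11 and 5.13e-10). Day 2 was 2.26-fold above day 1 (edgeR adjusted p = 0.00034). Day 3 was 1.499-fold above day 2 (edgeR adjusted p = 0.0377), a step that was lost with either day 2 library left out (adjusted p = 0.196 and 0.158), without day 3 replicate 2 (0.0669) or 3 (0.146), and on the authors' deposited log2 values with limma (0.0683). The lower level on day 4 did not pass the test (log2 difference -0.37 ± 0.18, edgeR adjusted p = 0.354).

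Asns was well expressed before crush, at 192, 113 and 115 CPM on day 0. It gave 209, 216 and 223 CPM on day 1, 396 and 406 CPM on day 2, 503, 531 and 559 CPM on day 3, and 457 and 427 CPM on day 4. Its day 1 libraries lay just above day 0 replicate 1. The log2 change was 0.63 ± 0.14 on day 1, 1.52 ± 0.16 on day 2, 1.92 ± 0.15 on day 3 and 1.66 ± 0.16 on day 4 (edgeR adjusted p = 0.00965, 1.86e-06, 1.65e-08 and 2.5e-07). The day 1 call was lost in a fit of only those 2 days (edgeR adjusted p = 0.065), and in the authors' deposited table its adjusted p was 0.0722 at a log2 change of 0.59. Without day 0 replicate 1 the log2 change was 0.89 on day 1 (edgeR adjusted p = 1.84e-06) and 2.19 in place of 1.92 on day 3. The larger step came later: day 2 was 1.85-fold above day 1 (edgeR adjusted p = 0.00108).

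Ppp1r15a, the feedback phosphatase subunit, differed from the others in that day 0 replicate 1 was its lowest uncrushed library. Day 0 gave 3.57, 5.31 and 5.41 CPM, day 1 12.3, 13.6 and 13.8 CPM, day 2 22.3 and 24.8 CPM, day 3 23.2, 27.1 and 31.2 CPM, and day 4 26.5 and 20.2 CPM. Days 2, 3 and 4 overlapped with one another and lay above day 1, which lay above day 0. The log2 change was 1.47 ± 0.20, 2.30 ± 0.21, 2.50 ± 0.20 and 2.29 ± 0.21 on days 1 to 4 (edgeR adjusted p = 0.000122, 4.77e-07, 2.39e-08 and 1.67e-07). Day 2 was 1.78-fold above day 1 (edgeR adjusted p = 0.0119), a call lost without day 2 replicate 2 (adjusted p = 0.128). Ppp1r15a overlaps the measured gene Tulp2 in the annotation, and the library kit is not stated to keep strand, so reads from the shared stretch cannot be assigned with certainty.

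Vldlr had the smallest estimates and was first called on day 2. It stood at 390, 315 and 303 CPM on day 0 and at 308, 334 and 302 CPM on day 1, so these days overlapped (log2 change -0.10 ± 0.10, interval of 2 SEs either way -0.29 to 0.09, edgeR adjusted p = 0.581). Day 2 gave 439 and 498 CPM, day 3 gave 476, 445 and 411 CPM, and day 4 gave 457 and 430 CPM, all above both earlier days. The log2 change against day 0 was 0.48 ± 0.11 on day 2, 0.40 ± 0.10 on day 3 and 0.40 ± 0.11 on day 4 (edgeR adjusted p = 0.00241, 0.00271 and 0.00603). The day 2 call was lost without day 2 replicate 2 (adjusted p = 0.0573) and the day 4 call without day 4 replicate 2 (0.0652) and with the first 2 sequencing components of the authors' covariate table as terms (0.0636). In the authors' deposited table the day 3 change was 0.41 with an adjusted p of 0.143. RefSeq places the gene Gm35438 over part of Vldlr.

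**Figure D2:**
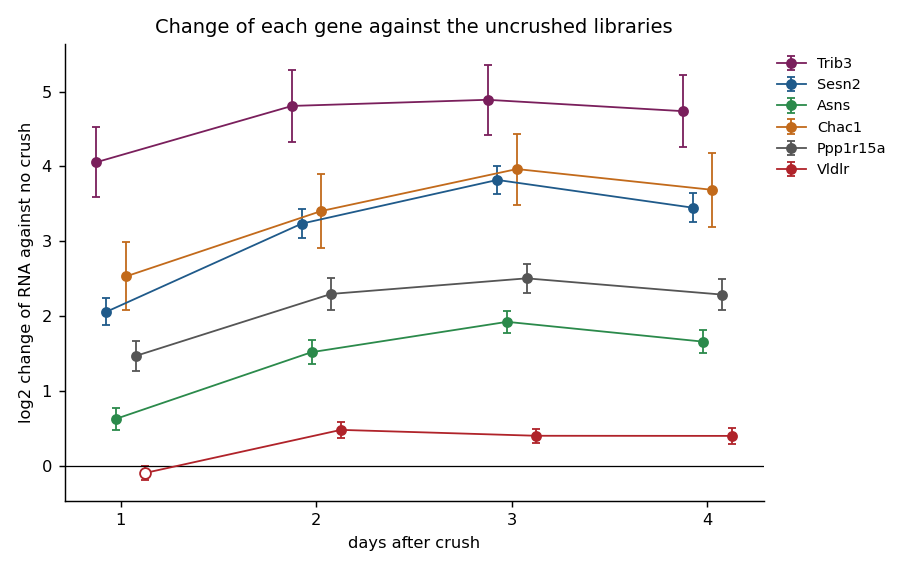
Log2 change of RNA against the uncrushed libraries (vertical) on days 1 to 4 (horizontal) for the 6 measured genes, from edgeR. Points are estimates, bars are SEs and the open point did not pass the test. Vldlr on day 1 is the open point, at -0.10, and the other genes lie at 0.63 or above on every day.

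Between later days, 4 of the 6 genes were called higher on day 2 than on day 1 (Sesn2, Asns, Ppp1r15a and Vldlr), where 6.22% of all genes were. On day 3, 5 of 6 were above day 1 (16.1% of all genes) and Trib3 was the exception in the fit of all days. DESeq2 called Trib3 in that comparison (adjusted p = 0.0291) and not Chac1 (0.0627). Day 3 against day 2 gave 1 call, Sesn2 (7.43% of all genes), and day 4 against day 3 gave none, with log2 differences from -0.37 to 0.00 (1.74% of all genes in either direction). For day 4 against day 3, DESeq2 called none of the 6 either. Without day 0 replicate 1, Chac1 was also called higher on day 2 than on day 1 (1.83-fold, edgeR adjusted p = 0.000223), as it was in a fit of only those 2 days (0.00113). Without that library, Asns (edgeR adjusted p = 0.00126) and Chac1 (0.00613) were also called higher on day 3 than on day 2, and Trib3 (0.0155) on day 3 than on day 1. With the first 2 sequencing components of the authors' covariate table as terms, none of the 6 was called higher on day 2 than on day 1 (Sesn2 0.12, Asns 0.123, Ppp1r15a 0.22, Vldlr 0.0867).

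Day 0 replicate 1 was the highest uncrushed library for 5 of the 6 genes, for 28 of 36 other ATF4 targets and for 7 of 8 stress response transcription factors, against 35.3% of all genes. Its label names C57BL/6 where the other day 0 RNA libraries are labelled C57BL/7 and C57BL/8. The numbers in these labels follow the replicate order, and whether they name different strains cannot be told from the labels. A link between label and level was not tested. The part of this library in the changes is given by the values without it, beside Trib3, Chac1 and Asns above. All 6 genes remained called higher on day 3 with each library left out in turn.

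Each gene was set beside its relatives and partners, and most of these were not called higher. TRIB3's relatives Trib1 and Trib2 were at 23.2 and 83.9 CPM on day 3. Trib1 was 1.46-fold above day 0 (edgeR adjusted p = 0.0336), a call lost without day 0 replicate 2 (0.111), day 0 replicate 3 (0.143) or day 3 replicate 1 (0.157). Trib2 was at a log2 change of -0.14 ± 0.09 (edgeR adjusted p = 0.269). Of the sestrins, Sesn3 fell 0.66-fold, from 100.3 to 66.2 CPM (edgeR adjusted p = 0.00034), and Sesn1 was at a log2 change of -0.18 ± 0.17 (edgeR adjusted p = 0.423). Chac2, the constitutive relative of Chac1, was at -0.40 ± 0.21 (edgeR adjusted p = 0.143). Ppp1r15b, the constitutive eIF2 phosphatase subunit, rose 1.76-fold, from 77.7 to 137 CPM (edgeR adjusted p = 1.11e-05), less than the 5.67-fold of Ppp1r15a. Glul, which makes the glutamine that ASNS takes its amide from, was lower on day 3, at a log2 change of -0.30 ± 0.08 (edgeR adjusted p = 0.00546). On day 4 it was at 172 to 180 CPM, above the 160 to 169 CPM of day 0. Glul is also in the list of Mueller glia and astrocyte markers, and the part of such cells in its level was not tested. Differences between relatives in their changes were not tested.

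The other reelin receptor and the ligand fell on day 3. Lrp8 (ApoER2), that receptor, went from 129 to 89.2 CPM on day 3 (log2 change -0.53 ± 0.09, edgeR adjusted p = 0.000213) and the ligand Reln from 635 to 359 CPM (-0.82 ± 0.12, edgeR adjusted p = 2.16e-05). The adaptor Dab1 was at -0.30 (edgeR adjusted p = 0.0745). Mylip, an E3 ligase that degrades VLDLR and was singled out after its values were seen, also fell (-1.10, edgeR adjusted p = 0.00653). Of the 9 genes of the reelin and VLDL receptor list, 4 were called lower and 1 (Crk) higher on day 3, with a median log2 change of -0.30 beside 0.03 for all genes. Of all genes, 20.1% were called lower and 20.4% higher on that day. The Crk call held in 8 of the 13 fits that left out 1 library each.

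No RNA value exists here for Fgf21, and its co-receptor Klb was not among the genes tested. Its receptor Fgfr1 rose from 11.5 CPM on day 0 to 17.5 CPM on day 1, 49.0 CPM on day 2, 91.2 CPM on day 3 and 112 CPM on day 4, and was called on every day (day 3 log2 change 2.99 ± 0.12, edgeR adjusted p = 6.68e-12). Kl (klotho), the co-receptor of another FGF hormone, went from 0.31 to 6.18 CPM on day 3 (log2 change 4.25 ± 0.62, edgeR adjusted p = 3.13e-05). Kl was near the floor on day 0 and did not rise steadily, at means of 3.17 CPM on day 1, 2.53 CPM on day 2 and 1.84 CPM on day 4. The other 4 genes of the FGF21 receptor list passed the test on no day against day 0.

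The wider response was read from lists made by function. The lists were chosen with earlier results of these data known, so their counts are a description and no independent support. Of 8 measured stress response transcription factors, 6 were called higher on day 1 and 7 on days 2 to 4, with median log2 changes of 1.54, 2.12, 2.55 and 2.14. Of all genes, 5.93%, 14.8%, 20.4% and 19.8% were called higher on days 1 to 4. On day 3 Atf4 stood at 615 CPM against 197 CPM on day 0 (3.13-fold), its partner Cebpg at 204 against 86.3 CPM (2.36-fold), Ddit3 (CHOP) at 11.1-fold its day 0 level of 20.9 CPM, Atf5 at 225 against 17.0 CPM (13.4-fold) and Nupr1 at 38.8 against 5.24 CPM (7.51-fold). Atf3 rose most, from 3.49 to 487 CPM (141-fold), and Jdp2 was the factor of the list that was not called on day 3 (log2 change -0.43, edgeR adjusted p = 0.0558). On day 4 it was called lower (-0.83, edgeR adjusted p = 0.00283). Jdp2 was singled out after its values were seen.

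Of 36 other ATF4 targets measured, 27 were called higher on day 1, 33 on day 2, 34 on day 3 and 33 on day 4, and 1 (Ddit4) was called lower, on day 4. Genes called higher made up 5.93%, 14.8%, 20.4% and 19.8% of all genes on days 1 to 4, and genes called lower 19% on day 4. The median log2 change of these targets was 0.86 on day 1 and 1.81 on day 3. The 3 largest log2 changes on day 3, singled out after their values were seen, were those of the amino acid transporter Slc7a3 (5.87), the cysteine synthesis enzyme Cth (5.18) and the serine synthesis enzyme Phgdh (4.94), and Shmt2, which makes glycine from serine, was at 3.26. The tRNA synthetases Eprs, Wars and Aars changed 3.34-fold, 2.80-fold and 2.65-fold. Slc1a5 and Ddit4, the latter a further restrainer of mTORC1, were the 2 of the list not called on day 3, and they too were singled out after their values were seen.

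The lists around the members' own functions were mixed or flat. On day 3, 20.4% of all genes were called higher and 20.1% lower. The list counts are a description, and their difference from these shares was not tested. Among 15 eIF2 kinases, phosphatase subunits and exchange factors, 3 were called higher and 4 lower on day 3 (median log2 change 0.06). Eif2ak3, which encodes the kinase PERK, was 2.84-fold up (18.9 to 53.6 CPM, edgeR adjusted p = 2.4e-06), while Eif2ak2, which encodes PKR and was singled out after its values were seen, was at 7.41 against 44.2 CPM (log2 change -2.58, edgeR adjusted p = 0.00701). Among 22 genes of amino acid sensing by mTORC1, 7 were called higher and 5 lower (median 0.04). Fnip1 and Seh1l rose 1.99-fold and 1.65-fold, and Depdc5, Rragb and Lamtor4 were lower. Of 7 glutathione genes, none was called on day 3 (median -0.02), and of 8 genes around TRIB3 and AKT, 3 were called higher and 2 lower (median -0.08).

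Profiles across the 13 libraries were compared as a description. Genes with at least 5 CPM on average were ranked by Pearson's r of log2 CPM with each member, over 10352 genes; the libraries share days, so any gene that changes with time scores high. The profile most like the mean of the members was that of Slc7a1 (r = 0.994), then Slc7a5 (0.993) and Slc3a2 (0.989), all amino acid transporters. The closest to Asns were Gars (0.996), Slc3a2 (0.991) and Psat1 (0.990), to Sesn2 Tbc1d20 (0.994), Atf3 (0.988) and Hmox1 (0.988), to Chac1 Clic4 (0.995), Slc7a5 (0.985) and Slc7a1 (0.983), and to Ppp1r15a Prnp (0.988), Hmox1 (0.982) and Riok2 (0.977). The closest to Trib3 were Psph (0.979), Chac1 (0.974) and Rbms2 (0.974). Vldlr was closest to Zfp715 (0.953), Zfp131 (0.942) and Rbm26 (0.940). By Spearman's rank correlation none of these top 3 names returned, except Zfp715 for Vldlr. Among the members, r ran from 0.878 to 0.974 between pairs without Vldlr and from 0.606 to 0.846 between Vldlr and the rest.

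None of the 6 promoter peaks was called on day 1, where 9.43% of all promoter peaks were, and 2 of 6 were called on day 3, both lower (8.97% of all promoter peaks were lower and 10.1% higher). Those were the promoter of Asns and that of Vldlr, genes whose RNA was higher. Scaled by library size alone, or with a lowess trend on signal level removed, these stayed called lower, and 2 more were called higher: Chac1 (log2 change 0.37, edgeR adjusted p = 0.0107 by library size, and 0.41 with 0.00545 after lowess) and the peak with the gene ID of Ppp1r15a (0.29 with 0.00717, and 0.36 with 0.0016). Between day 1 and day 3 none was called (1.3% of all promoter peaks). At an unadjusted p under 0.05, 2 of the 6 differed on day 1 (Trib3 and Vldlr) and 1 between day 1 and day 3 (Ppp1r15a), and DESeq2 called 2 and 1. The shares of all promoter peaks at that threshold, by DESeq2, by library size and after lowess were not counted. The member counts at these settings therefore cannot be set against all promoter peaks. Counts are from edgeR's quasi-likelihood test with batch as a term, at an adjusted p under 0.05 over 151630 peaks.

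The libraries differed in quality along the same days. The share of reads in peaks was 32.2% to 49.6% on day 0, 15.7% to 18.6% on day 1 and 17.3% to 45.6% on day 3. The authors' covariate table puts replicates 1 to 3 of each day in batch 2 and replicates 4 to 6 of days 0 and 3 in batch 1, so day 1 exists in batch 2 alone. Counts in peaks ran from 20006724 to 72579102 per library. With that share as a further term, 1 of the 6 promoter peaks (Vldlr) was called on day 3.

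The gene IDs of the peaks need care. The peak over the Sesn2 start site (chr4:132509005-132512027) is annotated to another gene, ENSMUSG00000086997, and the one over the Ppp1r15a start site (chr7:45524453-45527368) to Plekha4. The promoter peak that carries the ID of Ppp1r15a (chr7:45519330-45524087) covers the 3′ end of that gene and the stretch beyond it. The 7 peaks that span the start sites are therefore described here for all 7 genes, with positions in mm10.

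**Figure D3:**
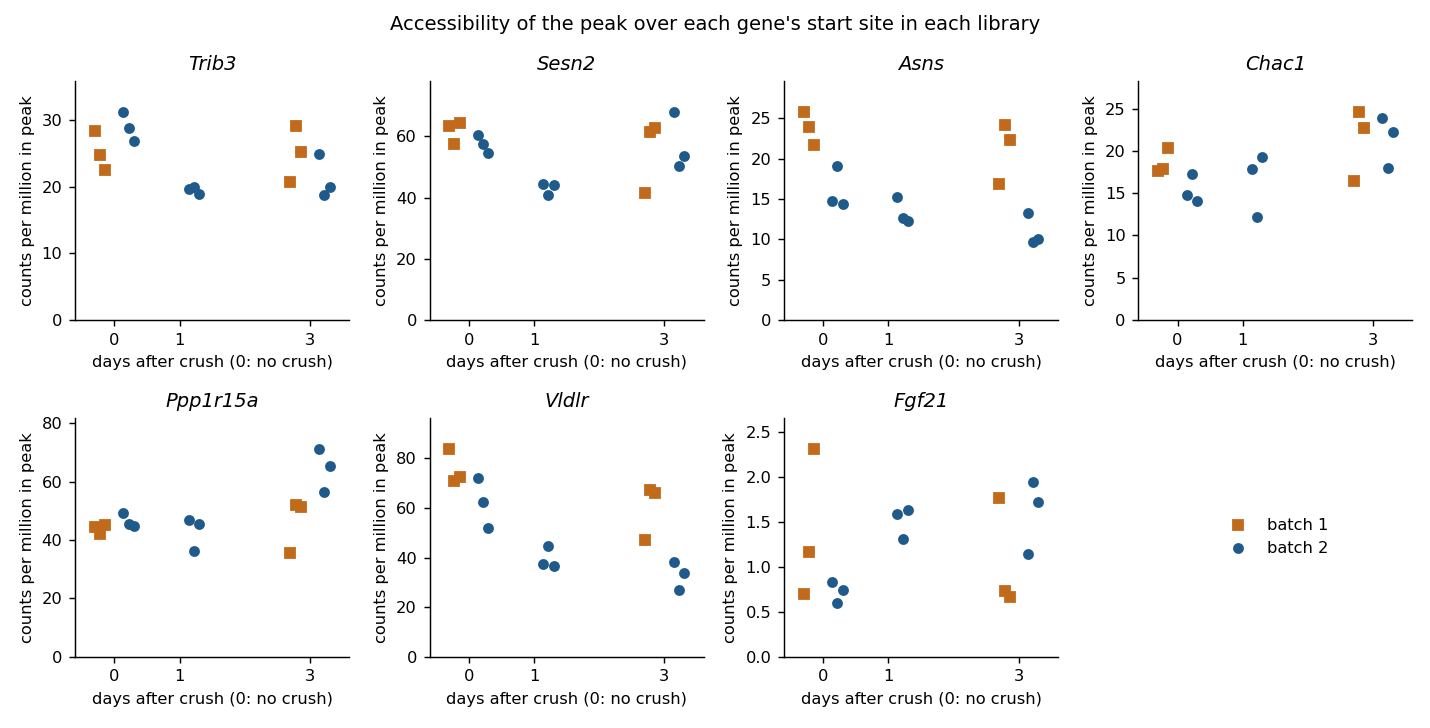
ATAC CPM in the peak over the start site of each of the 7 genes (vertical, from 0) by day after crush (horizontal), 1 symbol per library, squares for batch 1 and circles for batch 2. Vldlr and Asns libraries of batch 2 lie lower on day 3 than on day 0, and those of Ppp1r15a lie higher.

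The Vldlr start site peak (chr19:27215789-27220601) lost signal. In batch 2 it was at 71.9, 62.4 and 51.8 CPM on day 0, 37.5, 44.8 and 36.4 CPM on day 1, and 38.1, 26.7 and 33.7 CPM on day 3, with no overlap between day 0 and the later days. In batch 1 it was at 83.7, 70.8 and 72.5 CPM on day 0 and at 47.2, 67.2 and 65.8 CPM on day 3, again without overlap. The log2 change on day 3 was -0.62 ± 0.13 (edgeR adjusted p = 0.00123). Within batch 2 it was -1.002 (edgeR adjusted p = 1.98e-05), within batch 1 -0.34 (0.395) and without a batch term -0.57 (0.0854). On day 1 it was -0.51 ± 0.17 (edgeR adjusted p = 0.0626), within batch 2 -0.70 (0.00251), by library size -0.29 (0.135), after lowess -0.13 (0.55) and with the in-peak read share in the model -0.0194 (0.971). On day 3 it was -0.38 (0.0162) with that share in the model. A further peak in intron 2 of 16 of Vldlr (chr19:27225040-27226676) was also lower on day 3, where 7.39% of all peaks were (log2 change -0.69 ± 0.18, edgeR adjusted p = 0.00761), at -1.21 within batch 2 (9.45e-05), -0.26 within batch 1 (0.643) and -0.56 with the in-peak read share in the model (0.0837). Another in the same intron (chr19:27221022-27222330) was at 1.5 to 2.53 CPM on day 0, 2.64 to 3.36 CPM on day 1 and 1.36 to 2.10 CPM on day 3, and was called in neither comparison with day 0.

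The Asns start site peak (chr6:7692065-7694033) was at 14.7, 19.1 and 14.4 CPM on day 0, 15.2, 12.6 and 12.3 CPM on day 1, and 13.3, 9.69 and 10.0 CPM on day 3 in batch 2. In batch 1 it was at 25.7, 23.9 and 21.7 CPM on day 0 and at 16.8, 24.1 and 22.3 CPM on day 3, where the days overlapped. The log2 change on day 3 was -0.36 ± 0.12 (edgeR adjusted p = 0.0377), -0.64 within batch 2 (0.00318) and -0.18 within batch 1 (0.682). It was not called without a batch term (-0.31, edgeR adjusted p = 0.472) or with the in-peak read share in the model (-0.14, 0.404). The call was lost in 7 of the 15 fits that left out 1 library, with adjusted p-values between 0.0523 and 0.116, among them those without day 0 replicate 2 and without day 3 replicate 2. In the authors' deposited table it was -0.38 with an adjusted p of 0.0402.

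The Chac1 and Ppp1r15a start site peaks had estimates above 0 on day 3 that did not pass the test. The Chac1 peak (chr2:119350031-119351932) had a median of 17.5 CPM on day 0 (14.1 to 20.3) and 22.5 CPM on day 3 (16.4 to 24.6), and 17.9, 12.2 and 19.3 CPM on day 1. Its log2 change on day 3 was 0.33 ± 0.13 (edgeR adjusted p = 0.0609). It was called without day 3 replicate 4 (0.42, edgeR adjusted p = 0.012), the day 3 library of batch 1 with the smallest share of reads in peaks (19.7%), and also without day 0 replicate 6 (0.0378) or day 1 replicate 2 (0.0437). The Ppp1r15a start site peak had a median of 45.0 CPM on day 0 (42.1 to 49.2) and 54.2 CPM on day 3 (35.5 to 71.2), and its log2 change was 0.27 ± 0.11 (edgeR adjusted p = 0.0847). In batch 2 alone it was 0.38 (0.0255), in batch 1 alone 0.07 (0.903), and without day 3 replicate 4 it was 0.36 (0.00514). It was also called by library size (0.31, edgeR adjusted p = 0.00446) and after lowess (0.43, 0.000303). In the authors' deposited table it was 0.33 with an adjusted p of 0.0252.

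The start site peaks of Trib3 and Sesn2 did not pass the test on either day. In Trib3 (chr2:152342059-152345329) batch 2 gave 31.1, 28.7 and 26.9 CPM on day 0, 19.7, 19.9 and 18.9 CPM on day 1, and 24.9, 18.7 and 19.9 CPM on day 3. In batch 1 it was at 28.4, 24.7 and 22.5 CPM on day 0 and 20.7, 29.1 and 25.1 CPM on day 3. The log2 change was -0.47 ± 0.15 on day 1 (edgeR adjusted p = 0.055) and -0.23 ± 0.11 on day 3 (0.154). Within batch 2 both passed, at -0.62 (0.00234) and -0.53 (0.00296), and within batch 1 day 3 was at -0.02 (0.977). The day 1 value was -0.19 after lowess (0.304) and -0.0609 with the in-peak read share in the model (0.885). The Sesn2 start site peak had a median of 59.0 CPM on day 0 (54.6 to 64.4), 44.3 CPM on day 1 (40.9 to 44.4) and 57.6 CPM on day 3 (41.6 to 67.9). It did not overlap between days 0 and 1 (log2 change -0.45 ± 0.14, edgeR adjusted p = 0.053, and -0.47 with 0.00908 within batch 2). After lowess the day 1 value was -0.0721 (0.516) and with the in-peak read share in the model -0.24 (0.548). On day 3 it was at -0.08 ± 0.11 (interval of 2 SEs either way -0.30 to 0.13, edgeR adjusted p = 0.641).

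The Fgf21 start site peak (chr7:45615197-45615673) was faint. In batch 2 it was at 0.83, 0.60 and 0.75 CPM on day 0, 1.59, 1.31 and 1.63 CPM on day 1, and 1.149, 1.95 and 1.72 CPM on day 3, so both later days lay above day 0. Batch 1 gave 0.70, 1.17 and 2.31 CPM on day 0 and 1.77, 0.73 and 0.67 CPM on day 3. The log2 change was 1.00 on day 1 (edgeR adjusted p = 0.00548) and 1.07 on day 3 (0.00224) within batch 2, and -0.41 on day 3 within batch 1 (0.654). Over both batches it was 0.66 ± 0.39 (edgeR adjusted p = 0.269) and 0.38 ± 0.31 (0.413). With the share of reads in peaks added to the model, the sign was negative on both days, at -0.71 and -0.40.

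**Figure D4:**
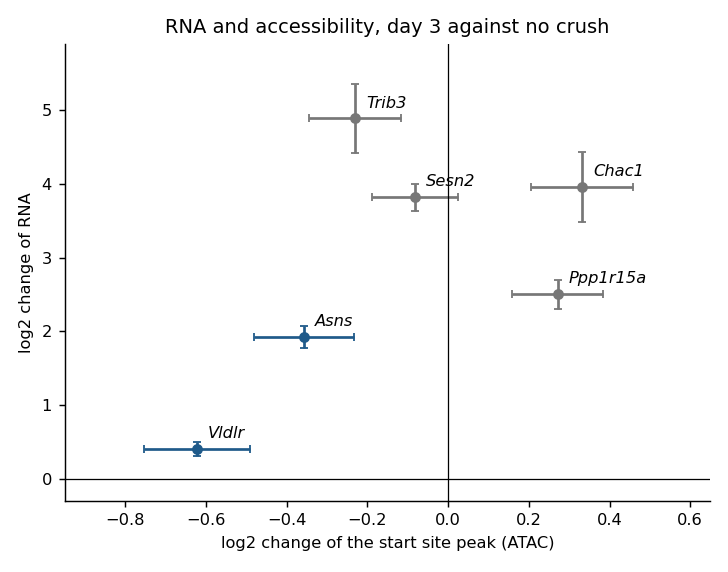
Log2 change of the start site peak (horizontal) and of RNA (vertical) on day 3 against no crush for the 6 genes with both, from edgeR. Bars are SEs, and blue marks the peaks that passed the test. All 6 genes lie above 0 for RNA, while Vldlr, Asns, Trib3 and Sesn2 lie left of 0 for accessibility and Ppp1r15a and Chac1 right of it.

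Transcription factor footprints, dips in ATAC cuts where a bound protein shields DNA, were deposited as 1 score per site and day. These tables hold only sites whose score is higher on both later days than on day 0 (6158 for ATF4 and 9293 for CEBPG), so a rise at a listed site is no result, and a site with no row may still be bound. Promoter peaks of the members hold 4 listed sites, 2 of ATF4 and 2 of CEBPG, all in the Chac1 promoter and at the same pair of places. The first (chr2:119350989-119351002 for ATF4) reads TGACGCAATCT on the plus strand over the 11 bases inside the RefSeq window, with capitals for the listed site. The second (chr2:119351046-119351059) reads CCGTTGCATCACTC and contains the core shown above for Chac1. Scores for ATF4 were 0.3203 on day 0, 0.623 on day 1 and 0.513 on day 3 at the first site, and 0.479, 0.642 and 0.604 at the second. Both were called bound on every day, day 0 included, where 25.8% of listed ATF4 sites were. Their day 0 scores stood at the 93.3 and 96.2 percentile of all listed ATF4 sites, and their log2 changes on day 3, 0.65 and 0.32, at the 51.3 and 26.5 percentile. DDIT3 sites were listed at the same 2 places, over overlapping bases and with the same scores, so these rows are not independent. The cores in the Trib3, Asns, Vldlr and Fgf21 windows had no listed ATF4 or CEBPG site.

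ATF3 sites were listed at other members. The Ppp1r15a start site peak held 4, all called bound on every day, and one of them (chr7:45526271-45526282, GGTGACGTCAGC on the minus strand) covers the TGACGTCA shown above, with scores of 1.46 on day 0, 1.66 on day 1 and 2.00 on day 3. The log2 changes of that site stood at the 17.6 percentile of all listed ATF3 sites on day 1 and the 35.4 percentile on day 3. Every listed ATF3 site scored higher on both later days and was called bound on some day, so neither is a result. Of all listed ATF3 sites, 32.6% were called bound on day 0, 72.7% on day 1 and 81.5% on day 3. Distal peaks annotated to Asns held 2 listed ATF3 sites, both called bound on day 1 alone. The authors' deposited table of promoter accessibility against RNA lists positive correlations only, 0.898 for Ppp1r15a, 0.487 for Chac1 and 0.223 for Sesn2, and has no entry for the other members, beside a median of 0.373 over its 6882 entries.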

How the data were processed

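The members and lists were chosen with earlier results of these data known. RNA values were deposited counts per gene, made with STAR, Picard and HTSeq on mm10, and ATAC values deposited counts per peak, made with Bowtie2, MACS2, featureCounts and ChIPseeker on GRCm38 (mm10), per the submitters' processing notes. No source used here gives tool versions. The authors deposited normalized RNA values and fold changes as log2, the latter with adjusted p-values. Footprint scores per site are a score deposited by the authors. Read shares in peaks are a fraction in the authors' deposited covariate table, which also holds batch and sequencing components. The authors' peak annotation gave gene IDs. 36 columns of per-sample values were not used.

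RNA (13 libraries, day as term) and ATAC (15 libraries, day and batch as terms) were each fitted with edgeR 4.0.16 (R 4.3.3, TMM scaling, filterByExpr, quasi-likelihood F test), with Benjamini-Hochberg adjustment over all genes or peaks and calls at 0.05. Alternatives used DESeq2 1.42.0, limma 3.58.1, other scalings, filters, terms and libraries left out. Named genes were the members, listed paralogs and partners, up to 4 genes per list by smallest p and those against their list's direction, and the 3 most alike per member. Some genes the rule names are not reported here. The scripts were tested on simulated data. ATAC descriptions name another day than titles for some libraries, and titles and treatment were used. Replicate numbers of ATAC days 0 and 1 deviated together (r = 0.118 to 0.223 over 3 pairs), and those of days 1 and 3 less so (0.018 to 0.111). Same-numbered ATAC libraries of days 0 and 3 gave r of either sign (-0.207 to 0.191), as did those of RNA (-0.126 to 0.068). A replicate term changed no ATAC call of a member.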

Additional observations from a re-analysis of the deposited data

Results flagged for a closer look

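In 36 groups of 4 to 10 libraries tested for a lone value at either end, 2 ends stood apart by Dixon's criterion, which chance meets in about 1 in 20 groups. The RNA days and ATAC day 1 hold at most 3 libraries each, so they were too small for this check. RNA day 0 replicate 1 was therefore not tested by it. The distal peak annotated to Chac1 at chr2:119379521-119379973 was at 0.725 CPM in day 3 replicate 2. The Fgf21 start site peak was at 2.31 CPM in day 0 replicate 6, the highest of that day.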

How the results depend on the processing

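All 6 measured genes were called higher on day 3 with each library left out and under every alternative except a fold change of at least 2, which removed Vldlr and left 5. The number called higher on day 2 than on day 1 was 1 with a fold change of at least 2, 0 with sequencing components as terms and 3 to 5 with 1 library left out. For day 3 against day 2 it was 0 with a fold change of at least 2, with the replicate block and with limma, 3 with only the days compared and 0 to 3 with 1 library left out. RNA numbers did not pair the libraries (r = -0.126 to 0.068 between same-numbered libraries). Small log2 changes turned sign: Frs2 on day 3 to 0.0409 by library size (-0.1832 to 0.0185 with 1 library left out), Trib3 and Vldlr for day 3 against day 2 (-0.14 to 0.34 and -0.167 to 0.015) and Trib3 for day 4 against day 3 (-0.35 to 0.02), in each case with 1 library left out. Vldlr for day 4 against day 3 was 0.0117 by library size, 0.0073 with only the days compared, 0.0325 with the replicate block, 0.0074 with sequencing components, 0.0032 with limma and -0.0545 to 0.0517 with 1 library left out.

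Of the 6 promoter peaks, 3 were called on day 1 in batch 2 alone, 2 by DESeq2 and 0 to 2 with 1 library left out. On day 3, 0 were called with a fold change of at least 2, without a batch term and in batch 1 alone, 4 in batch 2 alone, by library size and with the lowess trend removed, 1 with reads in peaks as a term and 1 to 3 with 1 library left out. For day 3 against day 1, 1 was called in batch 2 alone and by DESeq2, and 0 to 1 with 1 library left out. In batch 2 alone, calls over all 151630 peaks rose too, from 11884 to 40817 on day 1 and from 36123 to 44367 on day 3. For day 3 against day 1 they rose from 1789 to 15532. The shares of all promoter peaks under these settings were not counted, so the added member calls are no result about the members. On day 1 the Asns peak was at 0.0318 by library size, 0.0361 after lowess and 0.27 with reads in peaks. Chac1 was at -0.0472 without batch, -0.0035 with the replicate block, -0.035 by DESeq2 and -0.11 to 0.20 with 1 library left out. The Ppp1r15a gene ID peak was at 0.0741 without batch, 0.0364 by library size and 0.10 after lowess, its start site peak at 0.14 after lowess, and Fgf21 at -0.71 with reads in peaks. On day 3 the Sesn2 start site peak was at 0.0734 after lowess, 0.0182 with reads in peaks and -0.15 to 8e-04 with 1 library left out, the distal Sesn2 peak at -0.0085 in batch 1, and Fgf21 at -0.41 in batch 1 and -0.40 with reads in peaks. The cause of these shifts was not tested.

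Over all features, alternatives moved the number called by more than 1.5 times: RNA day 1 from 1563 to between 366 and 2218, day 2 from 4020 to 1294 and 4431, day 3 from 5564 to 2136 and 5805, and peaks on day 1 from 11884 to between 0 and 40817, on day 3 from 36123 to 7162 and 44367, and between days 1 and 3 from 1789 to 0 and 15532. Day 4 against day 3 went from 239 genes to 82 and 656, and to 1 without a library. Faint peaks such as Fgf21's, near 1 CPM, limit what depth can show.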
